A study of Strongylocentrotus purpuratus with 9 samples.

Results

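Isolated eRNA peaks are the bidirectionally transcribed candidate enhancers of the sea urchin *Strongylocentrotus purpuratus* whose neighbouring peaks on the same scaffold are far away on both sides. Members were chosen by the distances between peak starts, and a peak was called isolated when its neighbouring peaks on both sides, on the same scaffold of the v3.1 genome assembly, each began 50000 bp or more from its own start. Of the 18076 peaks in the list, 682 (3.77%) met this rule, on 426 scaffolds. They were set against the 8736 peaks on 1314 scaffolds that had both neighbours nearer than 50000 bp, called near peaks from here on. A further 3808 peaks had a near neighbour on only one side, and 4850 were the first, the last or the only peak of their scaffold and could not be classed. Distances are therefore described below without a test.

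CAGE libraries, which capture the 5′ ends of capped RNAs, were made from total RNA of whole embryos, with no treatment named, at 9 stages, every 6 h from 0 to 48 hours post fertilization (hpf), with 1 library per stage. The embryos came from a pair of cultures, and which culture a library came from is not given in the sources used here. The deposited list pools the libraries and gives each peak a position and 1 score for all stages together, so that no stage or replicate can be compared, and no p-value over samples is possible. The score is a whole number of 2 or more that the sources used here do not define.

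Active enhancers are commonly transcribed by RNA polymerase II in both directions from closely spaced start sites, and the resulting enhancer RNAs (eRNAs) are mostly short, unstable and unspliced. In CAGE data an enhancer of this kind appears as a pair of start site clusters that point away from each other, and a peak is the interval that spans the pair. Enhancers often lie in groups around the genes they control, and in the sea urchin embryo the regulatory genes of early development are controlled by several elements each, some of them far from the start of transcription. The genes around the peaks and the sequences under them were not analysed here.

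The gaps around the isolated peaks were long and often unequal. The distance to the nearer neighbour ran from 50013 to 233960 bp, with a median of 67849 bp, and the distance to the farther neighbour ran from 52821 to 602529 bp, with a median of 113639 bp. Near peaks had medians of 2709 bp and 13639.5 bp for the same distances. The farther neighbour was more than 2 times as far as the nearer one for 184 of the 682 members, and 34 members had a gap of 300000 bp or more on one side. Many members stood close to the limit of the rule. Of the 682, 193 had their nearer neighbour under 60000 bp away, 122 at 100000 bp or more, and only 7 at 200000 bp or more. Between-peak gaps of 50000 bp or more made up 20.1% of the 15154 gaps of the list but 67.8% of the sequence between peaks, and the 1195 long gaps that border a member held 27.1% of that sequence. Scaffold ends were not counted in these totals.

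**Figure D1:**
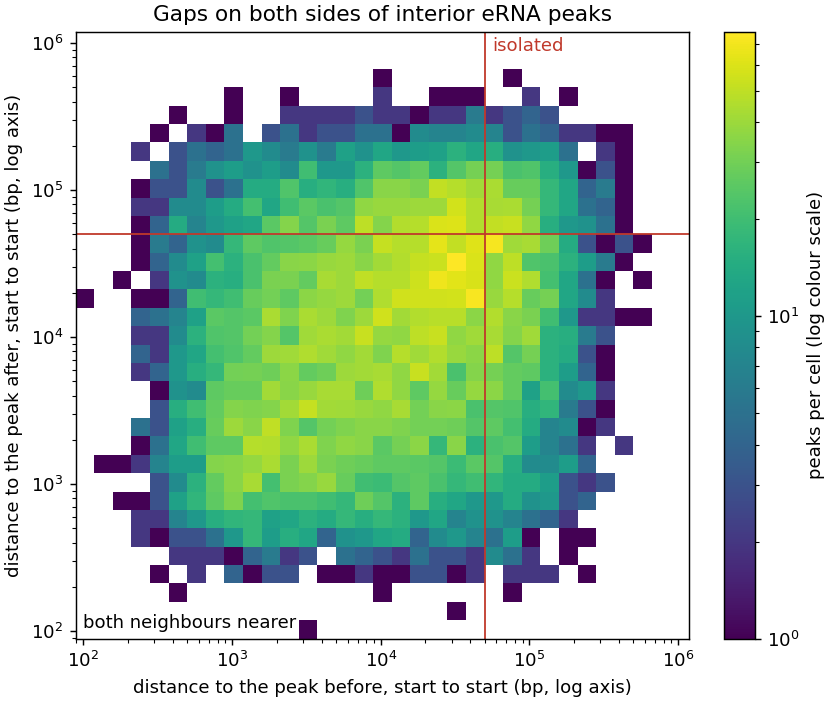
Distance from each interior eRNA peak to the peak before it (x axis) and after it (y axis) on the same v3.1 scaffold, start to start in bp on log axes, with the number of peaks in each cell as colour on a log scale. The red lines mark 50000 bp. The 682 isolated peaks fill the upper right corner, against 8736 near peaks in the lower left and 3808 in the 2 other corners.

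The peaks nearest to the limit on either side had low scores. The member just inside it lay on Scaffold12 at 463424–463655, with gaps of 50013 and 175165 bp and a score of 3. The other 4 of the 5 members nearest to the limit had a smaller gap of 50107 to 50227 bp and scores of 2 to 4. The 5 peaks just outside had a smaller gap of 49649 to 49861 bp and scores of 2 or 3. These peaks were picked for their closeness to the limit, so their distances cannot show whether a break lies there. Scores of 2 and 3 made up 44.4% and 13.5% of the whole list, so that low scores in so few peaks say little.

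The members with the most distant neighbours were not set apart in score. The member whose nearer neighbour was farthest away, on Scaffold186 at 347477–347878, had gaps of 242273 and 233960 bp, a score of 5 and a span of 402 bp, and had a neighbour at 6846 bp in the later v5.0 assembly. Next came a peak on Scaffold6 at 1125582–1125830, with gaps of 433529 and 224968 bp and a score of 6, and one on Scaffold25 at 1439967–1440149, with gaps of 223860 and 227027 bp and a score of 2. Of the 10 members with the largest smaller gap, 6 had the lowest score of 2, and the highest score among them was 21, at Scaffold172 (298958–299160). Among all 122 members with a smaller gap of 100000 bp or more, 48.4% had a score of 2 and 4 (3.28%) had a score of 1000 or more, near the 49.1% and 3.52% of all members. A peak on Scaffold315 at 331124–331172 was the narrowest of these 10, at 49 bp.

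Isolated peaks had the lowest score more often than near peaks, and they also had very high scores more often. The score of 2 was found in 335 of the 682 isolated peaks (49.1%, 95% Wilson interval 45.4 to 52.9%) and in 3632 of the 8736 near peaks (41.6%, 40.5 to 42.6%), a difference of 7.55 percentage points (95% interval 3.67 to 11.4). Over the whole list this share was 44.4%. It was 47.5% among mixed peaks and 46.4% among end peaks, both inside the interval of the isolated peaks. Scores of 1000 or more were found in 24 isolated peaks (3.52%, 2.38 to 5.18%) and in 98 near peaks (1.12%, 0.921 to 1.37%), a difference of 2.40 percentage points (1.23 to 4.07), against 1.65% of the whole list. These intervals cover counting error only and treat peaks as separate draws, although peaks of 1 scaffold share their surroundings and all peaks share the same libraries. With a limit of 100000 bp in place of 50000 bp, 122 peaks were isolated and 11329 were near, as the limit moved for both kinds. The intervals of both differences then included 0 (-3.40 to 14.2 and -0.0903 to 6.77 percentage points). In the v5.0 list the difference in scores of 1000 or more was 0.952 percentage points.

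The scores in between were less frequent among isolated peaks. Scores of 10 to 99 were found in 75 isolated peaks (11.0%, 8.86 to 13.6%) and in 1618 near peaks (18.5%, 17.7 to 19.3%), a difference of -7.52 percentage points (-9.81 to -4.83), where the whole list had 16.0%. Mixed peaks had 13.9% and end peaks 13.7%. For scores of 3, of 4 to 9 and from 100 to below 1000 the intervals of the difference included 0. A score of 3 was found in 13.8% of isolated and 13.1% of near peaks (13.5% of the list), a score of 4 to 9 in 21.4% of isolated and 24.4% of near peaks (23.0% of the list), and a score from 100 to below 1000 in 1.17% of isolated and 1.33% of near peaks (1.43% of the list). The median could not show any of this, as it was 3 in isolated and 3 in near peaks, while the upper quartile was 6 in isolated and 8 in near peaks.

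**Figure D2:**
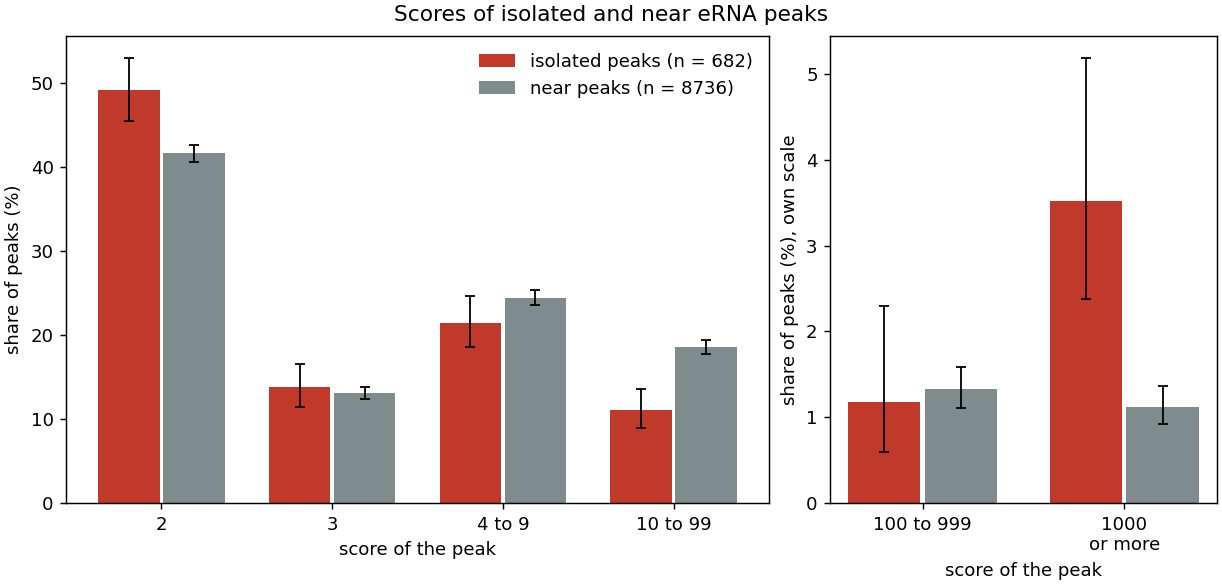
Share of isolated peaks (red) and near peaks (grey) in each score class, in percent, with 95% Wilson intervals as error bars; the right panel has its own scale. Isolated peaks were higher at a score of 2 (49.1%, against 41.6% of near peaks) and at 1000 or more (3.52%, against 1.12%), and lower at 10 to 99 (11.0%, against 18.5%).

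The 24 isolated peaks with a score of 1000 or more lay on 24 different scaffolds and held 95.2% of the summed score of all isolated peaks. Peaks with such scores held 86.0% of the sum among near peaks and 88.3% in the whole list. The lowest score among the 24 was 1014. Only 8 members had a score from 100 to below 1000, and the highest of these was 721. The highest score of an isolated peak was 15890, on Scaffold857 at 409246–410196, which ranked 13 in the whole list. This peak was 951 bp wide and had gaps of 95849 and 56444 bp. It was followed by a peak with a score of 14723 on Scaffold15 at 646452–646852, 401 bp wide, and by one with a score of 11441 on Scaffold154 at 360739–361107, 369 bp wide, with gaps of 186437 and 73475 bp. The next 3 members by score were on Scaffold405 at 360731–361332 (score 9636), Scaffold126 at 341909–342452 (score 8582) and Scaffold280 at 613063–613452 (score 7810). Scores of 7742, 6345, 5642 and 5257 completed the first 10, on Scaffold373 (283943–284469), Scaffold14 (856642–856891), Scaffold427 (187596–188425) and Scaffold252 (622490–623155). Among the 100 highest scores of the list, 10 were of isolated and 38 of near peaks, where isolated peaks made up 3.77% and near peaks 48.3% of the list. No isolated peak was among the 10 highest, which at a share of 3.77% is too few to read as a difference.

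The neighbours of these 24 peaks scored much like the neighbours of other members. Of their 48 neighbours, 24 had the score of 2, 0 had 1000 or more, and the highest was 68. Of all 1364 neighbours of members, 48.2% had a score of 2 and 31 (2.27%) had 1000 or more, so that 0 of 48 is too few to read as a difference. Among the 196 neighbours of the near peaks with a score of 1000 or more, 40.8% had a score of 2 and 9 (4.59%) had 1000 or more. Over all members the neighbours' median score was 3, as it was for near peaks, and 42.2% of the near peaks' neighbours had a score of 2. By the rule, a neighbour of a member has a long gap on at least one side, and 0 of the members' neighbours were near peaks.

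Isolated peaks were narrower than near peaks. Their median width was 290.5 bp (95% interval 277 to 300 bp; quartiles 188 and 371.75 bp), and that of near peaks was 325 bp (321 to 329 bp; quartiles 217 and 398.25 bp), a difference of -34.5 bp (-48.6 to -24.2). At the limit of 50000 bp, wide peaks were less frequent and narrow peaks more frequent among the isolated ones. A width of 500 bp or more was reached by 33 isolated peaks (4.84%, 3.47 to 6.72%) and by 1033 near peaks (11.8%, 11.2 to 12.5%), with 9.13% in the whole list, a difference of -6.99 percentage points (-8.52 to -4.99). A width of 150 bp or less was found in 124 isolated peaks (18.2%, 15.5 to 21.3%) and in 1133 near peaks (13.0%, 12.3 to 13.7%), with 14.9% in the whole list, a difference of 5.21 percentage points (2.40 to 8.36). Widths between these limits made up the rest, with 525 isolated peaks (77.0%) and 6570 near peaks (75.2%), where the whole list had 76.0%. End peaks were close to isolated peaks in width, with a median of 297 bp, 5.69% of 500 bp or more and 17.6% of 150 bp or less. Mixed peaks had a median of 303 bp, with 8.11% and 15.3% at the same limits. With a limit of 100000 bp, the median width difference was -21 bp (-42.4 to 1.20) and that in widths of 150 bp or less was 1.95 percentage points (-3.46 to 9.44), and both intervals included 0, while that in widths of 500 bp or more was -7.53 points (-9.61 to -2.65).

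Width was greater at higher scores in both kinds of peak (Spearman's rho 0.32 across the 682 isolated peaks and 0.44 across the 8736 near peaks, which all share the same libraries and peak caller), so that the widths were also compared within score classes. At a score of 2 the medians were 258 bp for isolated and 268 bp for near peaks, and the interval of the difference (-31.2 to 19.4 bp) included 0. At scores of 4 to 9 they were 296.5 bp for isolated and 342 bp for near peaks, a difference of -45.5 bp (-67.2 to -19.1). At scores of 10 to 99 they were 352 bp for isolated and 432 bp for near peaks, a difference of -80 bp (-129 to -36.1), and 11 of 75 isolated peaks (14.7%) and 556 of 1618 near peaks (34.4%) were 500 bp or wider. At a score of 3, and from 100 to below 1000 with only 8 isolated peaks, the intervals of the difference included 0 (-69.6 to 1.77 bp and -297 to 328 bp). Isolated peaks were thus narrower than near peaks within the score classes of 4 to 9 and of 10 to 99. Scores inside a class were not matched. Among scores of 1000 or more, the medians were 527 bp for the 24 isolated and 481 bp for the 98 near peaks, with an interval of -125 to 285 bp around the difference of 46 bp.

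**Figure D3:**
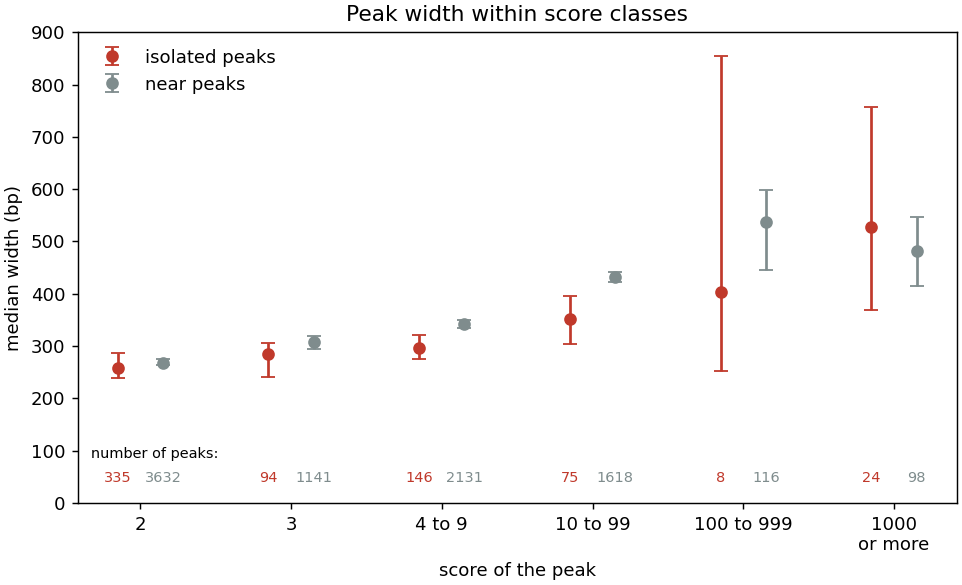
Median width in bp of isolated peaks (red) and near peaks (grey) in 6 score classes, with 95% order-statistic intervals as bars and the number of peaks below each. Medians at scores of 10 to 99 were 352 bp for isolated and 432 bp for near peaks, while the intervals at a score of 2 and at 1000 or more overlapped.

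The widest members carried high scores and the narrowest the lowest one. The widest was 1189 bp, on Scaffold409 at 196015–197203, with a score of 1014. It was followed by peaks of 1145 bp on Scaffold18 (723808–724952, score 3091) and 1142 bp on Scaffold85 (321851–322992, score 4041). An exception among the 5 widest was a peak of 863 bp on Scaffold142 (450024–450886), with a score of 5.

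At the other end, 7 isolated peaks (1.03%, 0.498 to 2.10%) were 10 bp wide or less, as were 23 near peaks (0.263%, 0.176 to 0.395%) and 0.321% of the whole list. All 7 had the score of 2, and 19 of the 23 near peaks did. A pair of them were neighbours, on Scaffold259 at 233210–233211, 2 bp wide, and at 525953–525956, 4 bp wide, and the gap between them was 292743 bp. The others lay on Scaffold333 (469230–469233), Scaffold2 (750686–750691), Scaffold55 (960196–960201), Scaffold86 (194112–194117) and Scaffold95 (237917–237926), and were 4 to 10 bp wide. The limit of 10 bp was chosen after the widths were seen.

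All interior peaks were also sorted by the distance to the nearer neighbour. The bins under 50000 bp hold mixed peaks as well as near peaks, so they are not the near peaks of the comparison above. Among the 2098 peaks with a neighbour under 1000 bp away, 798 had a score of 2, 21.0% had a score of 10 to 99 and 12.8% a width of 500 bp or more. The share with a score of 2 was 38.2% at 1000 to 2000 bp, 45.9% at 5000 to 10000 bp, 50.4% at 20000 to 30000 bp, 44.7% at 50000 to 70000 bp, 57.5% at 70000 to 100000 bp and 48.4% at 100000 bp or more. The share with a score of 10 to 99 was 10.9% at 20000 to 30000 bp, 13.1% at 30000 to 50000 bp and 11.5% at 100000 bp or more. The share of wide peaks was 5.17%, 8.33% and 3.28% in the same bins, and 4.72% at 50000 to 70000 bp. Over near and mixed peaks together, the shares of lowest and middle scores had thus mostly shifted before the limit of 50000 bp. The share of wide peaks did not fall steadily, and in the last bin before the limit its interval was 6.69 to 10.3%. At 70000 to 100000 bp the share with a score of 2 had an interval of 50.6 to 64.1%, above the shares at 20000 to 30000 bp (50.4%) and 30000 to 50000 bp (48.4%), whose own intervals reached 53.6% and 51.7%. The share with a score of 1000 or more was 1.67% under 1000 bp, 0.466% at 1000 to 2000 bp, 2.36% at 30000 to 50000 bp and 3.33%, 4.00% and 3.28% in the 3 bins from 50000 bp on, of 360, 200 and 122 peaks. Within the 682 members, the distance to the nearer neighbour had almost no rank correlation with score (Spearman's rho -0.06) or with width (-0.01).

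**Figure D4:**
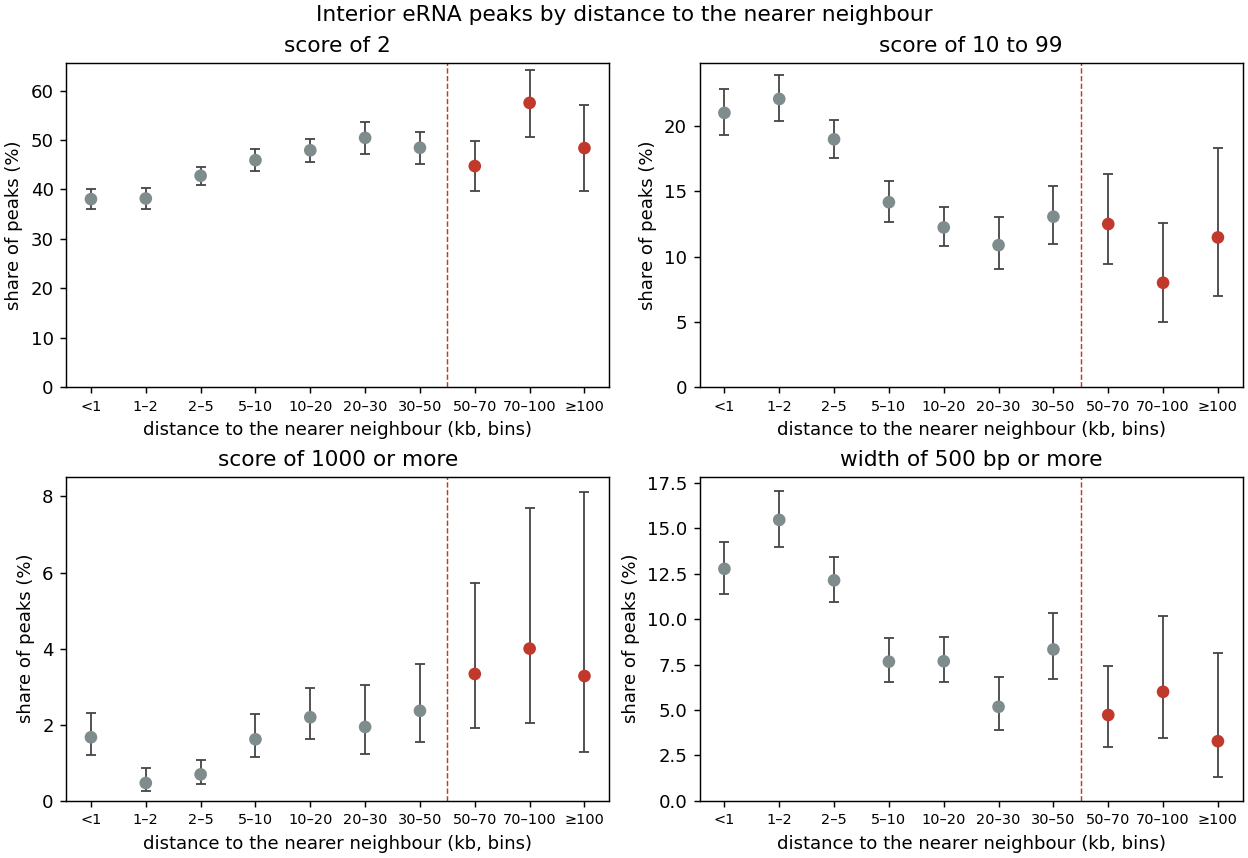
Share of interior eRNA peaks, in percent, with a score of 2, a score of 10 to 99, a score of 1000 or more and a width of 500 bp or more, by distance in kb to the nearer neighbour in 10 bins, with 95% Wilson intervals; isolated peaks are red, to the right of the dashed line at 50 kb. The share with a score of 10 to 99 was 21.0% in the bin under 1 kb and 11.5% at 100 kb or more, and the share with a score of 1000 or more was 1.67% and 3.28%.

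The rule needs room on both sides of a peak, and the scaffolds of isolated peaks were longer when measured to the end of their last peak. The last peak of the scaffold ended at a median of 697217 bp for isolated and 527436 bp for near peaks, and the scaffold carried a median of 15 peaks for isolated and 19 for near peaks. One member was found on 260 of the 426 scaffolds, 2 on 107, and 6 on Scaffold57. Both kinds of peak were present on 353 scaffolds, with 588 isolated and 3389 near peaks. When each of these scaffolds was weighted equally, the mean share with a score of 2 was 48.2% among isolated and 43.9% among near peaks, a smaller difference (4.24 percentage points) than in the whole list, and it was higher among isolated peaks on 157 scaffolds, lower on 152 and equal on 44. The share with a score of 10 to 99 was 11.3% among isolated and 15.4% among near peaks, and this difference (-4.17 percentage points) was also smaller than in the whole list. The share with 1000 or more was 3.84% among isolated and 1.74% among near peaks, higher among isolated peaks on 23 scaffolds and lower on 32. The share of 500 bp or more was 5.28% among isolated and 10.2% among near peaks, higher on 27 scaffolds and lower on 177. The share of 150 bp or less was 17.4% among isolated and 14.6% among near peaks, a difference of 2.80 points, higher on 86 scaffolds and lower on 159. A scaffold with 1 member can have only a share of 0 or 100% for it, so that the scaffold counts follow from the number of peaks as well as from their scores.

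Some isolated peaks followed one another along a scaffold. Of the 682 members, 304 stood in runs of 2 or more consecutive members, and 338 of the 1364 neighbours of members were members themselves. There were 104 runs of 2, 29 of 3, 1 of 4 and 1 of 5. The run of 5 was on Scaffold190, from 292139 to 689426, and its peaks had scores of 20, 2, 2188, 3 and 3 and widths of 157 to 294 bp. The third peak, at 541347–541503, was 157 bp wide, the narrowest of the 24 members with a score of 1000 or more. Members next to each other share a gap, so that a neighbour of a member needs only 1 more long gap to be a member. Of all gaps in the list, 20.1% were that long. The number of such runs was not compared with any other arrangement.

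A lifted version of the list was deposited for the v5.0 assembly, with its intervals on 107 scaffolds where v3.1 had peaks on 2922, so that the distances around the same peaks could be read again. Of the 682 isolated peaks, 634 (93.0%) were found there as a single interval of their own, 12 were merged with another peak, 6 gave 2 or more intervals and 30 were not found (4.40%), as were 237 near peaks (2.71%). Of the 634, 359 (56.6%) were isolated in v5.0 too, 211 had a neighbour under 50000 bp on one side, 57 on both sides, and 7 were at a scaffold end. Among the 8319 near peaks lifted singly, 6728 (80.9%) still had both neighbours near and 256 (3.08%) were isolated. The share isolated in v5.0 was 10.1% of mixed peaks, 21.0% of end peaks and 11.2% of all 16910 peaks lifted singly. Isolation in v3.1 thus carried over to v5.0 for some members and not for others.

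The near neighbours of members that lost isolation in v5.0 were mostly peaks of another v3.1 scaffold. The 268 members with a near neighbour in v5.0 had 325 such neighbours, of which 267 were peaks of another v3.1 scaffold, 50 were the member's own v3.1 neighbour at a shorter distance, and 8 were other peaks of its v3.1 scaffold. Whether the member or its neighbour changed place between the assemblies was not told apart. Some of these members were lifted only in part, down to a width of 1 bp in v5.0, and are counted here too. Of the gaps that border a member and had both ends lifted singly, 585 of 1046 (55.9%) lay on a single v5.0 scaffold, against 80.7% of the gaps under 50000 bp. Where both ends were on 1 scaffold, the v5.0 gap was a median of 0.985 times the v3.1 gap (quartiles 0.889 and 1.07), and 71.5% were within 20% of it.

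**Figure D5:**
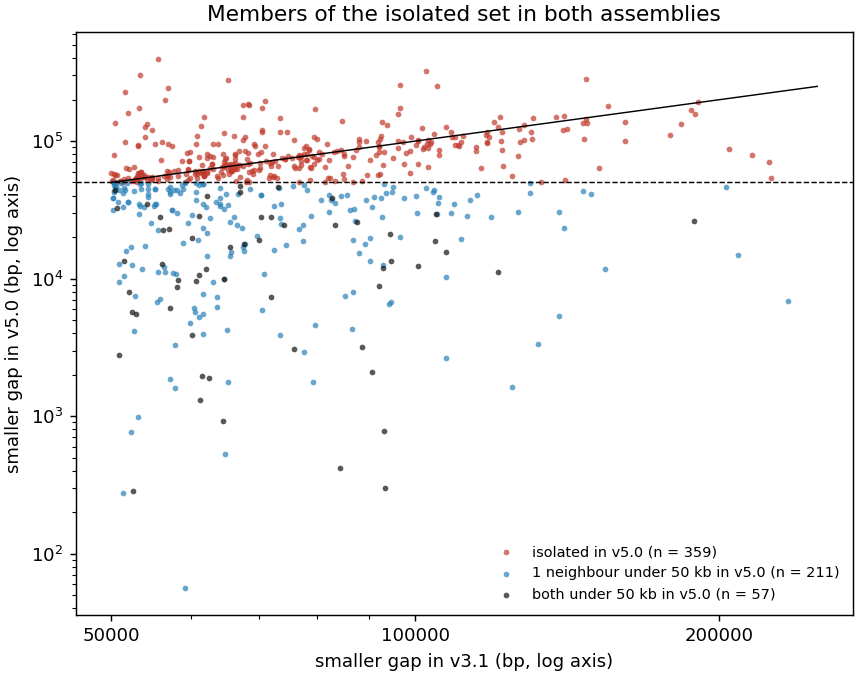
Distance in bp to the nearer neighbour in v3.1 (x axis) and v5.0 (y axis), on log axes, for the isolated peaks lifted singly and not at a v5.0 scaffold end; the solid line marks equal distances and the dashed line 50000 bp in v5.0. The 359 peaks isolated in both assemblies lie above the dashed line, and the 211 and 57 peaks with 1 or 2 neighbours under 50000 bp lie below it.

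The members that stayed isolated had more of the lowest scores. The score of 2 was found in 202 of the 359 peaks isolated in both assemblies (56.3%, 51.1 to 61.3%) and in 110 of the 268 isolated in v3.1 only (41.0%, 35.3 to 47.0%), a difference of 15.2 percentage points (7.32 to 22.8), while near peaks that were near in both assemblies had 41.1%. Scores of 4 to 9 were found in 16.2% of those isolated in both and 28.4% of those isolated in v3.1 only, a difference of -12.2 percentage points (-18.8 to -5.65). The shares of very high scores were 3.34% (12 peaks) among those isolated in both and 3.73% (10 peaks) among those isolated in v3.1 only, with an interval of -3.71 to 2.55 percentage points around the difference. Both of these groups had a median width of 292 bp, against 329 bp for peaks that were near in both assemblies. Of the 10 members with the highest scores, 7 were still isolated in v5.0. The exceptions were the highest, on Scaffold857, with a v5.0 neighbour at 12239 bp, the one on Scaffold154, with a neighbour at 27552 bp, and the one on Scaffold373, which was at a v5.0 scaffold end. Of the 10 with the largest smaller gap, 6 were still isolated.

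Scaffold8, which carries *Sp-kirrelL*, a gene needed for fusion of the skeleton-forming primary mesenchyme cells, held 27 eRNA peaks, of which 3 were isolated and 14 near. All 3 isolated peaks had a score of 2. The first, at 297193–297384, had gaps of 66380 and 233495 bp and was isolated in v5.0 too, with gaps of 80907 and 113063 bp, on another v5.0 scaffold than the other 2. The peaks at 634562–634879 and 707955–708061 followed each other with 73393 bp between their starts, and the second had the longest gap next to any member, 602529 bp, on its far side. Neither was isolated in v5.0, where their nearer neighbours were 19167 and 45439 bp away. The 25 peaks of Scaffold8 that were lifted singly lay on 5 v5.0 scaffolds, with 9 on that of the first isolated peak and 7 on that of the other 2. Which v5.0 scaffold carries *Sp-kirrelL* was not looked up, so the isolated peaks are not linked to the gene here.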

How the data were processed

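CAGE libraries of whole embryos at 9 stages were sequenced by the authors to more than 100000000 reads each, of which 60000000 to 80000000 mapped uniquely. Per the series' design text and the labels, reads were checked with FastQC, cleared of rRNA and mapped to the v3.1 assembly with BWA, and those with a BWA mapping quality under 20 were realigned with HISAT2. Start sites were clustered with DPI without decomposition, and those with 2 tags or more went into the FANTOM5 program for bidirectional enhancers. Tool versions are not given in the sources used here. The deposited score is a whole number per peak whose definition and normalization are not given, so no depth can be given for a single peak, and no library could be left out.

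Peaks were sorted by scaffold and start, and distances were taken start to start. The lifted v5.0 list, which the authors deposited with the peak names kept, was matched by name. Positions are printed counting from 1. Shares have 95% Wilson intervals, medians have order-statistic intervals, and differences combine the intervals of both groups by Newcombe's method. No p-value was computed, since peaks are not replicates. The members and the quantities compared were chosen with earlier results of these data known. The peaks named singly are the 10 members with the highest score, the 10 with the largest smaller gap, the 5 widest, the 5 narrowest, the 5 just inside and the 5 just outside the limit, and those on the scaffold of *Sp-kirrelL*. All 7 members of 10 bp or less were named after their widths were seen, as was the longest run of members. The classing was tested on simulated data. Alternatives covered the distance limit, how distance is measured, a minimum score, the assembly and the choice of scaffolds. Python 3.11.15, numpy 2.4.6, pandas 2.3.3, scipy 1.17.1 and matplotlib 3.10.9 were used.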

Additional observations from a re-analysis of the deposited data

How the results depend on the processing

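The number of isolated peaks, 682, was 1947 with a limit of 25000 bp, 122 with 100000 bp, 1971 in the v5.0 list, 1608 with scaffold ends allowed, 359 when isolated in both assemblies and 161 on scaffolds with a last peak ending at 1000000 bp or beyond. The last 2 settings, and the results on the shares of scores of 10 to 99, of scores of 1000 or more, of wide and of narrow peaks, were added after seeing the data. No difference changed its sign under the 10 alternatives, except that the median score difference of 0 was -1.5 with the lowest score left out and -1 with the last 2 settings. The difference in the share with the lowest score, 7.55 percentage points, ran from 5.33 to 15.2 and was largest for peaks of the same class in both assemblies (15.2). It could not be computed with the lowest score left out. The difference in scores of 1000 or more, 2.40 points, was 0.952 in the v5.0 list, and that in scores of 10 to 99, -7.52 points, was -12.0 with the lowest score left out. The difference in widths of 500 bp or more, -6.99 points, was -9.01 with the lowest score left out, -4.17 in v5.0, -8.82 for the same class in both assemblies and -9.37 on scaffolds with a last peak ending at 1000000 bp or beyond. Lifting changed many widths, so that v5.0 widths are not the v3.1 ones. Of the peaks lifted singly, 61.7% of the 634 isolated and 63.3% of the 8319 near peaks kept their width. With a limit of 100000 bp, the median width difference was -21 bp and the difference in widths of 150 bp or less was 1.95 points, and the intervals of both, of the lowest-score difference (-3.40 to 14.2), of scores of 10 to 99 (-10.4 to 1.04) and of scores of 1000 or more (-0.0903 to 6.77) included 0 with 122 isolated and 11329 near peaks. The causes were not tested. No paired analysis was possible because the list pools 1 library per stage and has no replicates.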

Other observations

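The same rule applied to the v5.0 list found 1971 isolated intervals of 17401, against 682 of 18076 peaks in v3.1. Of the 1895 intervals isolated in v5.0 that had been lifted singly, 359 (18.9%) were isolated in v3.1, and 920 were the first, last or only peak of a v3.1 scaffold, of which 266 were the only one. A further 360 had a near neighbour on one side in v3.1, and 256 had one on both sides.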
